A study of Homo sapiens with 4 samples.

Results

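The response to a miR-34a mimic was compared between H1299 cells and their DDX21 knockout derivative, gene by gene, as a difference of responses. A response is the log2 ratio of the library with the mimic over the non-treated library of the same line, and the difference is the response in DDX21 KO minus the response in H1299. Of the 46427 genes in the deposited gene table, 12304 had at least 50 reads in every one of the 4 libraries and were used. Another 1660 genes reached 50 reads in some of the libraries and 32463 in none of them. The genes used held between 99.4% and 99.5% of the counts of each library. Just inside the limit lay the BMP antagonist gene NOG, with 53 reads in its lowest library, and just outside it lay NOTCH1 and DNAH7, each with 44.

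H1299 is a human non-small cell lung cancer line. The 4 groups, with 1 library each, were non-treated H1299, H1299 with the miR-34a mimic, non-treated DDX21 KO and DDX21 KO with the miR-34a mimic, all grown from the same parental line. Per the labels, RNA was transfected at 25 nM with a lipid reagent and cells were harvested after 48 hours. No control RNA is named for the non-treated cells, so each response holds the effect of transfection as well as that of the mimic. The labels do not say how DDX21 was deleted or whether the knockout is a single clone. With 1 library per group there is no replicate check anywhere below, no p-value was computed, and each difference lies between libraries. Intervals are 95% counting intervals and cover counting error only.

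MicroRNAs guide Argonaute proteins to messenger RNAs whose 3' untranslated region (3' UTR) pairs with the seed of the microRNA, and such messages are repressed and degraded. The known targets of miR-34a include cyclins, their kinases, E2F factors and the receptor kinases AXL and MET, so that it slows entry into S phase. DDX21 is a DEAD-box RNA helicase of the nucleolus, where it is needed for making and maturing ribosomal RNA, and it also binds the 7SK ribonucleoprotein at promoters of RNA polymerase II.

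The sequences that the results turn on are the mature miR-34a and its matches in 3' UTRs. The first line gives mature miR-34a-5p from RefSeq (chr1:9151735-9151756, minus strand, GRCh38.p14), with its seed, bases 2 to 8, in capitals. The other lines give 22-base windows of the longest 3' UTR of each gene in GENCODE 29 on GRCh38, with the match in capitals. In 8-mer and 7-mer A1 matches the capitals include a final A, which lies opposite the first base of the microRNA, outside the seed. AXL, E2F3 and KLHL25 hold an 8-mer match, CDK6, MET, TK1 and TMEM201 hold a 7-mer m8 match, and SIRT1 holds a 7-mer A1 match. AXL, CDK6, E2F3, MET and SIRT1 are reported targets, TK1 is a nucleotide synthesis gene of the replicating cell, and KLHL25 and TMEM201 are shown because their responses in the lines had opposite signs.
miR-34a-5p: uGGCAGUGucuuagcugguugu
AXL (chr19:41259934-41259955, plus strand): ggatccaagctaagCACTGCCA
E2F3 (chr6:20493146-20493167, plus strand): aattaatttgtaaaCACTGCCA
KLHL25 (chr15:85760631-85760652, minus strand): ctttggggctgcggCACTGCCA
CDK6 (chr7:92614045-92614066, minus strand): tactttctgccacaCACTGCCt
MET (chr7:116796161-116796182, plus strand): tccaatggttttttCACTGCCt
TK1 (chr17:78174718-78174739, minus strand): cgctcccttcctgcCACTGCCg
TMEM201 (chr1:9602416-9602437, plus strand): tggcccagtccctcCACTGCCt
SIRT1 (chr10:67917469-67917490, plus strand): ttccacaagtattaaACTGCCA

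The counts summed to between 26868358 in non-treated DDX21 KO and 36263145 in non-treated H1299 cells. DDX21 itself was at 722 CPM, the count scaled to the size of the library, in non-treated H1299, 588 with the mimic, 206 in non-treated DDX21 KO and 182 with the mimic, so its RNA was lower in both knockout libraries but was not absent. Its response was -0.30 in H1299 and -0.18 in DDX21 KO. The host transcript of miR-34a, MIR34AHG, had 4, 6, 9 and 10 counts in the libraries in the same order, and the MIR34A precursor had 0 in each, which allows up to 0.0840 to 0.111 CPM. Libraries of this kind do not retain RNA as short as a mature microRNA. Summed markers of leukocytes, endothelial cells, fibroblasts and erythroid cells were at most 0.784 CPM in every library. The 5 epithelial markers summed to 748 CPM in non-treated H1299, 1530 with the mimic, 1590 in non-treated DDX21 KO and 2450 with the mimic, carried by KRT8 and KRT18.

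Over all genes the DDX21 KO cells responded in the same pattern as H1299 cells and to a smaller extent. The SD of the response over genes was 0.51 in H1299 and 0.37 in DDX21 KO on the log2 scale. The responses had a Pearson r of 0.733 and a Spearman rho of 0.70 over the 12304 genes, which are not independent replicates. The major axis, a line that treats both lines alike, had a slope of 0.651. A share of 91.6% of genes had responses within 1.5-fold of each other. The median difference was -0.01, and from the 5th to the 95th percentile the difference ran from -0.53 to 0.55. Its SD was 0.34, of which counting error alone would give 0.14.

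**Figure D1:**
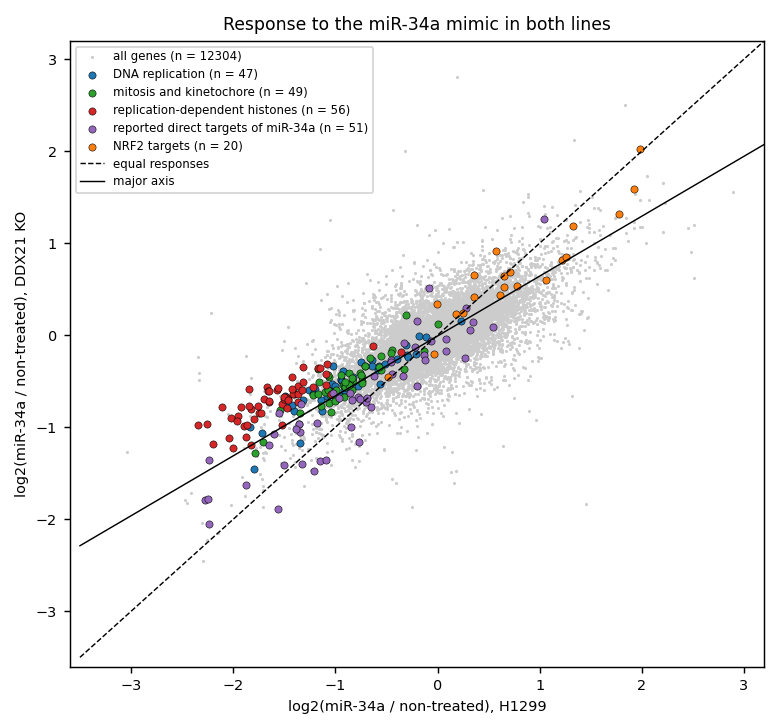
Response to the miR-34a mimic in H1299 (horizontal axis, log2 ratio) against DDX21 KO (vertical axis, log2 ratio), 1 point per gene, with 5 gene lists in colour, the line of equal responses dashed and the major axis solid (slope 0.651). All 56 histone genes lie above the dashed line, while reported miR-34a targets lie on both sides of it.

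The response was at least 2-fold lower with the mimic for 401 genes in H1299 (3.26%) and 148 in DDX21 KO (1.2%), and at least 2-fold higher for 294 genes in H1299 (2.39%) and 99 in DDX21 KO (0.805%). The difference itself was at least 2-fold higher for 100 genes (0.813%) and at least 2-fold lower for 83 (0.675%). At 1.5-fold these were 539 (4.38%) and 492 (4%). A higher difference means either that a gene was reduced less in DDX21 KO or that it was raised more, so the sign alone does not tell which.

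Genes were therefore also chosen by the mean of their responses, which weighs both lines equally. As responses spread more widely in H1299 (SD 0.51 beside 0.37), this choice by itself tends to find smaller responses in DDX21 KO. With a mean response of -1 or lower there were 228 genes, and 198 of them (86.8%) had the smaller reduction in DDX21 KO, with a median response of -1.46 in H1299 and -1.02 in DDX21 KO. With a mean of 1 or higher there were 143 genes, of which 118 (82.5%) had the smaller increase in DDX21 KO, at medians of 1.39 and 1.02. At a mean of 0.5 or more in size the shares were 80.4% of 1246 lower genes and 79.8% of 949 higher genes. The smaller spread in the knockout libraries was thus present on both the reduced and the induced side. These shares restate that spread and are not separate evidence of it. Of the 401 genes past 2-fold lower in H1299, 106 were also past 2-fold lower in DDX21 KO, 247 were not but had a difference within 2-fold, and 48 were not and had a difference past 2-fold. Histone genes made up 5, 35 and 14 of these in turn. In the reverse case, past 2-fold lower in DDX21 KO alone, 31 genes had a difference within 2-fold and 11 past it.

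In both lines the mimic was followed by lower levels of genes whose 3' UTR can pair with the seed. A 3' UTR was found for 10982 genes. The 657 genes with an 8-mer match had a median response of -0.17 in H1299 and -0.14 in DDX21 KO, beside 0.06 and 0.02 for the 8386 genes with none. The shift against genes with none was thus -0.23 in H1299 and -0.17 in DDX21 KO. Of the 8-mer genes, 55 (8.37%) were at least 2-fold lower in H1299 and 35 (5.33%) in DDX21 KO. For genes with none these shares were 2.40% and 0.513%, a drop from 201 to 43 genes. The order 8-mer, 7-mer m8, 7-mer A1 and none that the H1299 medians showed (-0.17, -0.07, -0.06 and 0.06) had -0.14, -0.05, -0.07 and 0.02 in DDX21 KO, where the 7-mer classes were in the other order.

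**Figure D2:**
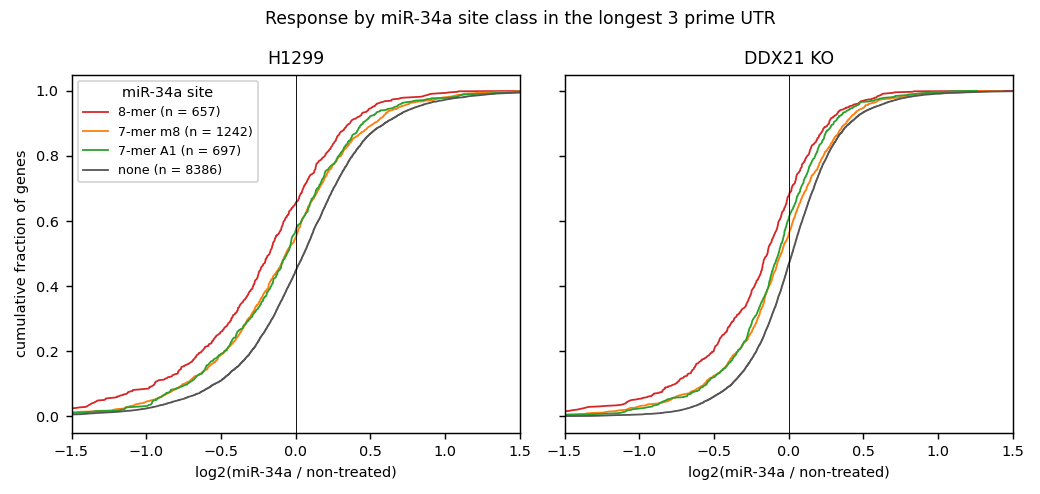
Cumulative fraction of genes (vertical axis) against the log2 response (horizontal axis) in H1299 (left) and DDX21 KO (right) by miR-34a site class, with the number of genes per class in the legend. The curve of the 657 genes with an 8-mer lies left of the curve of the 8386 genes with none in both panels, by 0.23 and 0.17 at the median.

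Among genes reduced on the mean of both lines, those with a site had responses in DDX21 KO closer to those in H1299 than genes without a site had. For the 98 genes with a site and a mean response of -1 or lower, the medians were -1.39 in H1299 and -1.10 in DDX21 KO, and the median of the gene-wise ratio of DDX21 KO over H1299 response was 0.84. For the 96 genes with no site the medians were -1.48 and -0.89, with a ratio of 0.58. A 2-fold smaller reduction in DDX21 KO was found for 13 of the 96 genes with no site and for 3 of the 98 with one. Of the 96 genes with no site, 39 belonged to 7 lists of cell cycle genes (G1 cyclins and kinases, E2F and RB factors, DNA replication, deoxynucleotide synthesis, mitosis, homologous recombination and histones) and had a ratio of 0.49, while the other 57 had 0.75. The 86 genes with a site outside these lists had a ratio of 0.87, and the 12 within them 0.72. The same direction was seen at a mean of -0.5 or lower, where the ratio was 0.81 over 440 genes with a site and 0.63 over 636 with none.

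Reported direct targets of miR-34a were mostly lower with the mimic in both lines, with medians close to each other. Of 66 listed genes, 51 had enough reads. Their median response was -0.77 in H1299 and -0.68 in DDX21 KO, and the median difference was 0.10, beside -0.01 for all genes. The difference was above 0 for 32 of the 51 (62.7%, beside 47.9% of all genes) and ran from -0.52 for HMGA2 to 0.88 for FOSL1. The response was the smaller in DDX21 KO for 34, and the median gene-wise ratio of the responses was 0.79. None of the 51 was past 2-fold in the difference, where 0.813% of all genes were higher and 0.675% lower. Past 1.5-fold higher were 4 (LEF1, FOSL1, LDHA and VEGFA), where 4.38% of all genes were. At least 2-fold lower with the mimic were 20 of the 51 in H1299 and 16 in DDX21 KO, where 3.26% and 1.2% of all genes were.

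AXL, a receptor tyrosine kinase, had 54170 counts in non-treated H1299, 10591 with the mimic, 50055 in non-treated DDX21 KO and 14689 with the mimic. It fell by 2.24 in H1299 and by 2.05 in DDX21 KO, and the difference of 0.18 (0.14 to 0.22) was beyond counting error though small against the responses. MET, the receptor of hepatocyte growth factor, had 5934, 1494, 6281 and 2467 counts in the same order, and responses of -1.87 and -1.63. Both receptors were low with the mimic in either line. CDK6, a kinase of the G1 phase, had 24957, 9921, 23809 and 10391 counts and responses of -1.21 and -1.48, so its reduction was the larger in DDX21 KO by 0.27. E2F5, a transcription factor of the same phase, had 1602, 500, 1415 and 464 counts and responses of -1.56 and -1.89. For SIRT1, a deacetylase, the counts of 2131, 1217, 1483 and 1128 gave responses of -0.69 and -0.68, a difference of 0.01 (-0.14 to 0.16) that was not detectable at this depth. E2F3 was alike, at -0.70 and -0.72.

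FOSL1, a subunit of the AP-1 transcription factor, was the reported target with the highest difference. Its counts were 1996 in non-treated H1299, 389 with the mimic, 863 in non-treated DDX21 KO and 410 with the mimic, so that the libraries with the mimic were close and non-treated H1299 stood highest. Its response was -2.24 in H1299 and -1.35 in DDX21 KO, a difference of 0.88 (0.65 to 1.11). CDK4, the partner kinase of D-type cyclins, fell by 1.65 in H1299 and by 1.19 in DDX21 KO, but shares 41.1% of its exonic bases with an overlapping gene. CCND1, which encodes cyclin D1, had responses of -0.20 and -0.56. MYC had responses of -0.20 and 0.15, both within 2-fold. CD274, which encodes PD-L1 and is on the list as a reported target, was higher with the mimic in both lines, at 131, 250, 154 and 452 counts and responses of 1.04 and 1.26. Of 28 genes of microRNA processing and the Argonaute complex, 0 were past 2-fold in the difference. Of all genes 0.813% were higher and 0.675% lower, so 0 of 28 is near those shares. The median difference of the 28 was 0.06. AGO2, the slicing Argonaute, had responses of 0.58 and 0.75.

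Histone genes had the highest median difference of the 36 gene lists. These genes are transcribed in S phase, most of their messages end in a stem-loop instead of a poly(A) tail, and RNA depleted of ribosomal RNA retains them. Of 68 histone genes found by symbol, 56 had enough reads. The list also takes in H1-10, which is not replication-dependent. Their median response was -1.57 in H1299 and -0.69 in DDX21 KO. The difference was above 0 for 56 of 56, past 1.5-fold for 51 and past 2-fold for 15, where 47.9%, 4.38% and 0.813% of all genes were. The median histone gene had 187 CPM in non-treated H1299, 59.1 with the mimic, 160 in non-treated DDX21 KO and 92.6 with the mimic. In DDX21 KO over H1299 the median was -0.21 without treatment and 0.64 with the mimic. The libraries thus differed more with the mimic than without it.

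The core histone gene H4C9 had 988, 178, 588 and 362 counts in non-treated H1299, H1299 with the mimic, non-treated DDX21 KO and DDX21 KO with the mimic. Its responses of -2.34 and -0.98 gave the highest difference among histone genes, 1.36 (1.06 to 1.66). H1-5, a linker histone gene and far more abundant, had 30307, 7214, 19334 and 12801 counts, with responses of -1.95 and -0.88 and a difference of 1.07 (1.02 to 1.12). At the other end H2AW had 138, 99, 126 and 135 counts and a difference of 0.17. Histone genes are near-identical copies in part, so reads may be split between them, and H3C12 shares 44.6% of its exonic bases with another gene.

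**Figure D3:**
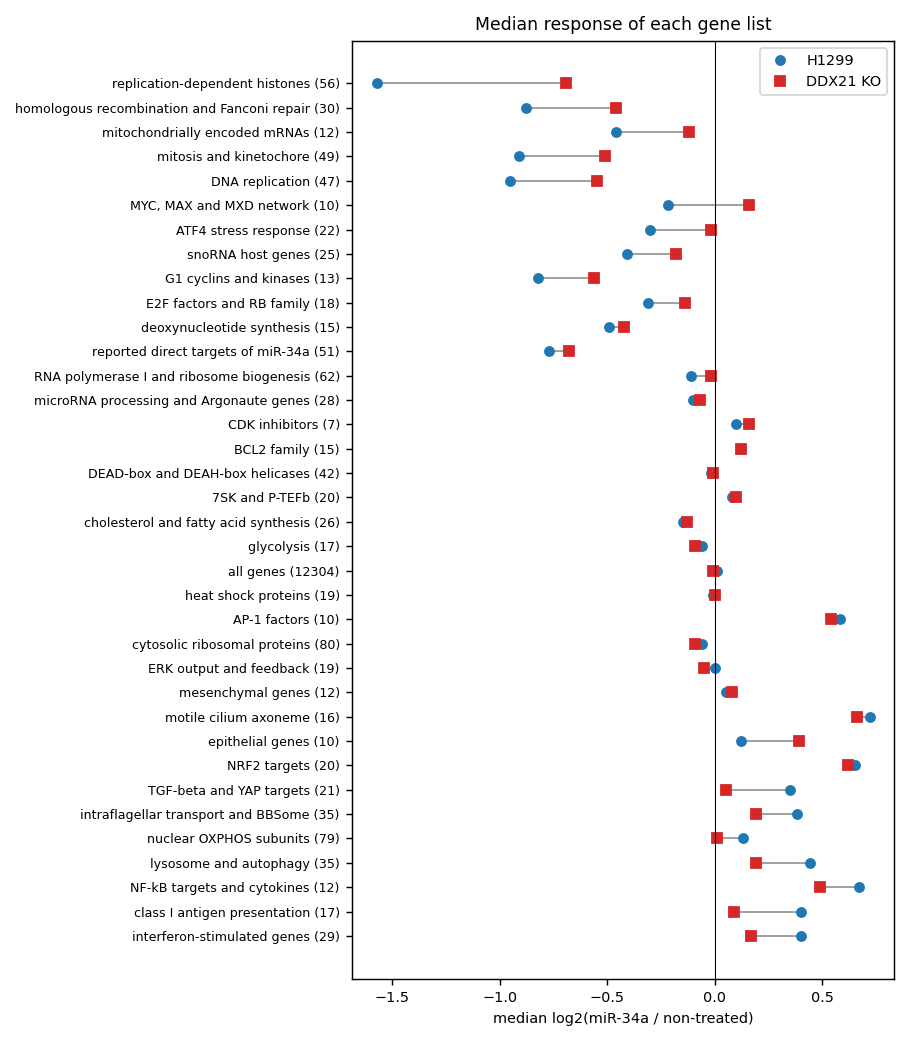
Median log2 response in H1299 (circles) and DDX21 KO (squares) for gene lists, including those reported here, and for all 12304 genes. Rows are ordered by the median difference, with the number of genes in parentheses. Histone genes move from -1.57 to -0.69, reported miR-34a targets only from -0.77 to -0.68, and interferon-stimulated genes from 0.40 to 0.17.

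Genes of DNA replication, mitosis and homologous recombination had medians below 0 in both lines and nearer to 0 in DDX21 KO. All 47 replication genes had enough reads, and their median response was -0.95 in H1299 and -0.55 in DDX21 KO. The difference was above 0 for 46 of 47 and past 1.5-fold higher for 12, where 47.9% and 4.38% of all genes were. Past 2-fold lower with the mimic were 20 in H1299 and 3 in DDX21 KO, where 3.26% and 1.2% of all genes were. For the 49 mitosis and kinetochore genes the medians were -0.91 and -0.51, with the difference above 0 for 47, and for 30 genes of homologous recombination and Fanconi repair they were -0.88 and -0.46, with 27 above 0. Past 2-fold lower with the mimic were 18 mitosis genes in H1299 and 2 in DDX21 KO, and 10 and 1 genes of the repair list. No gene of these lists was past 2-fold in the difference, where 0.813% of all genes were higher and 0.675% lower. In non-treated cells the median DDX21 KO over H1299 ratio was -0.15, -0.04 and -0.39 for the lists in this order, and with the mimic it was 0.28, 0.30 and 0.12.

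MCM7, a subunit of the replicative helicase, had 32801 counts in non-treated H1299, 10875 with the mimic, 24371 in non-treated DDX21 KO and 17989 with the mimic, and its response was -1.47 in H1299 and -0.72 in DDX21 KO. Without treatment the lines were close, at 919 and 905 CPM. CDT1, which loads that helicase, had 1687, 552, 1281 and 986 counts and responses of -1.49 and -0.66. GINS1, a subunit of the same machine, had 1817, 469, 1233 and 753 counts and responses of -1.83 and -0.99. CDC20, the activator of the anaphase-promoting complex, differed in another way. It had 224 CPM in non-treated H1299, 99.6 with the mimic, 140 in non-treated DDX21 KO and 109 with the mimic, so that its smaller response in DDX21 KO (-0.36 beside -1.17) came with a lower level without treatment. BRCA2, a factor of homologous recombination, was alike, at 155, 69.8, 105 and 77.4 CPM and responses of -1.15 and -0.44. FOXM1 and MYBL2, transcription factors of the late cell cycle, had responses of -1.55 and -1.67 in H1299 and of -0.81 and -0.78 in DDX21 KO. ORC4 and ORC5, subunits of the origin recognition complex, were within 1.5-fold in both lines, at 0.23 and -0.21 in H1299 and 0.16 and -0.20 in DDX21 KO.

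Of the 15 genes of deoxynucleotide synthesis, TYMS was the one past 2-fold in the difference, where 0.813% of all genes were higher. TYMS encodes thymidylate synthase, and its counts were 4835, 1248, 3200 and 2493, with non-treated lines close (135 and 119 CPM) and the libraries with the mimic apart (37.9 and 76.1 CPM). Its response was -1.83 in H1299 and -0.64 in DDX21 KO, a difference of 1.19 (1.07 to 1.31). TYMS shares 52.8% of its exonic bases with an overlapping gene. TK1, thymidine kinase, which holds the seed match shown above, fell by 2.48 in H1299 and by 1.79 in DDX21 KO. RRM2, a subunit of ribonucleotide reductase, had responses of -1.17 and -0.71. Upstream in the cell cycle, the 13 G1 cyclins and kinases had medians of -0.82 and -0.56, and the 18 E2F and RB family genes -0.31 and -0.14. The CDK inhibitor gene CDKN1A had 707, 1218, 452 and 613 counts and responses of 0.90 and 0.16, both within 2-fold. Of 7 CDK inhibitor genes none was past 2-fold in the difference, where 0.813% of all genes were higher and 0.675% lower. Past 1.5-fold were 2 higher and 1 lower, beside 4.38% and 4% of all genes. CDKN2C, at responses of -1.48 and -0.66, had a difference of 0.81, opposite in sign to the -0.75 of CDKN1A.

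Promoters of the genes that moved together were searched on both strands for the letters of known cell cycle elements, in the 300 bases from 250 before to 50 after the RefSeq gene start (GRCh38.p14), where 9662 of the genes used had a promoter. The E2F letters TTTCCCGC or TTTGGCGC were in 17 of 41 promoters of replication genes (41.5%) and in 2.31% of all 27305 promoters. The CHR letters TTTGAA were in 29 of 41 promoters of mitosis genes (70.7%) and in 15.4% of all promoters. CCAAT was in 43 of 52 histone promoters (82.7%) and in 35.7% of all promoters. These were the highest shares of each string among the 7 cell cycle lists. Among the genes used the shares were 3.94% for E2F, 9.61% for CHR and 37.8% for CCAAT. Of 25 promoters of homologous recombination genes, 3 held the E2F letters (12%), 2 the CHR letters (8%) and 10 CCAAT (40%). No histone promoter held the E2F letters. Outside the cell cycle lists, 352 genes with the E2F letters had a median response of -0.09 in H1299 and -0.06 in DDX21 KO, and 874 genes with the CHR letters had -0.07 and -0.04, beside 0.03 and 0.01 for genes with no CHR letters. No string of letters searched lies within another. A match describes the letters of these windows and shows no binding. The lines below give 24-base windows, written along the strand of the gene, with the matching letters in capitals, for the 3 replication or nucleotide genes and the 3 mitosis genes with a match that had high bounds of the counting interval of the difference. CLSPN encodes claspin of the replication checkpoint, CENPA the centromeric histone, and ESPL1 separase.
TYMS (E2F letters, chr18:657606-657629, plus strand): ggacggccGCGGGAAAaggcgcgc
MCM7 (E2F letters, chr7:100101569-100101592, minus strand): ctcggaccGCGGGAAAcccggcgc
CLSPN (E2F letters, chr1:35769968-35769991, minus strand): ctggctggGCGGGAAAgcaagaac
CDC20 (CHR letters, chr1:43358907-43358930, plus strand): cggttggatTTTGAAggagccaat
CENPA (CHR letters, chr2:26786029-26786052, plus strand): agcgagcgaTTTGAAcgcgagcgg
ESPL1 (CHR letters, chr12:53268259-53268282, plus strand): ccgcggataTTTGAAaggagggtc

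**Figure D4:**
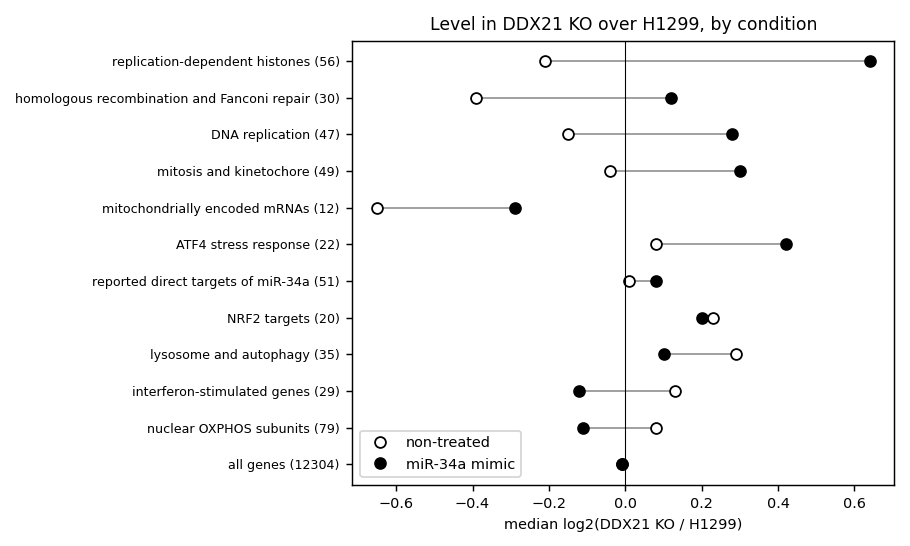
Median log2 ratio of DDX21 KO over H1299 (horizontal axis) for 11 gene lists and all genes, in non-treated cells (open circles) and with the mimic (filled circles). For histone genes the ratio goes from -0.21 to 0.64, and for all genes it is -0.01 in both.

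On the induced side, targets of the oxidative stress factor NRF2 had close medians in the lines. The median over 20 such genes was 0.65 in H1299 and 0.62 in DDX21 KO, with 13 differences below 0 and 0 past 1.5-fold. Of all genes 47.9% had a difference above 0, and past 1.5-fold 4.38% were higher and 4% lower. Past 2-fold higher with the mimic were 7 of the 20 in H1299 and 4 in DDX21 KO, where 2.39% and 0.805% of all genes were. The lowest differences, both -0.46, were those of TXNRD1, thioredoxin reductase, and NQO1, a quinone reductase. HMOX1, heme oxygenase, had 421, 1481, 482 and 1766 counts and rose by 1.93 and 1.59. OSGIN1, a growth inhibitor induced by oxidative stress, had 285, 1045, 306 and 1516 counts and rose by 1.98 and 2.02. The autophagy receptor gene SQSTM1 had 390 CPM in non-treated H1299, 1543 with the mimic, 485 in non-treated DDX21 KO and 1339 with the mimic, and rose by 1.99 and 1.47, though it shares 23.4% of its exonic bases with another gene. The 10 AP-1 genes had medians of 0.58 and 0.54, and the 16 genes of the motile cilium axoneme with enough reads, of 60, had 0.72 and 0.66.

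Interferon-stimulated genes had the lowest median difference of the 36 lists, though with the deposited FPKM and at a minimum of 200 counts class I antigen presentation genes were lower. Of 47 genes, 29 had enough reads, and their median response was 0.40 in H1299 and 0.17 in DDX21 KO, with the difference below 0 for 24. Past 2-fold lower were 4 of the 29 and past 1.5-fold lower 10, where 0.675% and 4% of all genes were. IFIT2, an interferon-induced protein that binds viral RNA, had 4.23 CPM in non-treated H1299, 9.88 with the mimic, 11.0 in non-treated DDX21 KO and 10.0 with the mimic. Non-treated H1299 was thus the one low library. IFIT3, which acts with it, had 3.95, 9.61, 8.17 and 8.82 CPM, the same order of a low non-treated H1299 library beside 3 close ones, and its responses were 1.27 and 0.11. In non-treated cells the median ratio of DDX21 KO over H1299 for the list was 0.13, and with the mimic -0.12.

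Several other lists with a median above 0 in H1299 had a smaller median in DDX21 KO. The 10 epithelial genes went the other way, with a larger median in DDX21 KO (0.39) than in H1299 (0.12). Gene by gene, however, their median difference was -0.07, with 4 differences above and 6 below 0. For 12 NF-kB targets and cytokines the medians were 0.67 and 0.49, with 10 of 12 differences below 0. The cytokine gene LIF had 109, 583, 293 and 820 counts and rose by 2.51 in H1299 and by 1.20 in DDX21 KO, a difference of -1.32 (-1.67 to -0.97), while its level with the mimic was the higher in DDX21 KO, at 25.0 CPM beside 17.7. For 35 lysosome and autophagy genes the medians were 0.44 and 0.19, with 29 differences below 0 and none past 2-fold. For 79 nuclear subunits of oxidative phosphorylation they were 0.13 and 0.01, with 67 differences below 0 and none past 1.5-fold. Of all genes, 47.9% had a difference above 0, 0.813% were past 2-fold higher and 0.675% past 2-fold lower. Past 1.5-fold, 4.38% of all genes were higher and 4% lower. At such shares, none past 2-fold in a list of 35 is little different from all genes. For 17 class I antigen presentation genes the medians were 0.40 and 0.09, and for 35 genes of intraflagellar transport and the BBSome 0.38 and 0.19. TGF-beta and YAP targets had 0.35 and 0.05 over 21 genes, but their differences were evenly split, 10 above and 11 below 0. Their median difference of -0.11 turned to 0.11 at a minimum of 200 counts. TGFBI, a matrix protein induced by TGF-beta, had 30.1 CPM in non-treated H1299, 51.1 with the mimic, 128 in non-treated DDX21 KO and 106 with the mimic, so that both knockout libraries lay above both H1299 libraries.

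Lists tied to the known roles of DDX21 were also described. The 62 genes of RNA polymerase I and ribosome biogenesis had medians of -0.11 and -0.02. None of them was past 1.5-fold in the difference, where 4.38% of all genes were higher and 4% lower. The 20 genes of the 7SK and P-TEFb complexes had 0.08 and 0.10, the 42 DEAD-box and DEAH-box helicases -0.02 and -0.01, and the 80 cytosolic ribosomal protein genes -0.06 and -0.09. The 25 snoRNA host genes had -0.41 and -0.18, with 20 differences above 0, where 47.9% of all genes were. For 6 ribosomal RNA genes the median difference was 0.84, with 6 of 6 above 0 and 3 past 2-fold higher, beside 47.9% and 0.813% of all genes. However, ribosomal RNA was depleted before sequencing and took between 0.346% and 0.663% of the counts of a library. Among lists not tied to those roles of DDX21, the 12 messages encoded in mitochondria had medians of -0.46 and -0.12, and the 22 ATF4 stress genes -0.30 and -0.02. CHAC1, an ATF4 target that degrades glutathione, was the one of the 22 past 2-fold, at 365, 210, 210 and 332 counts and a difference of 1.05. Past 1.5-fold higher were 6 of the 22, and 19 were above 0, where 4.38% and 47.9% of all genes were.

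**Figure D5:**
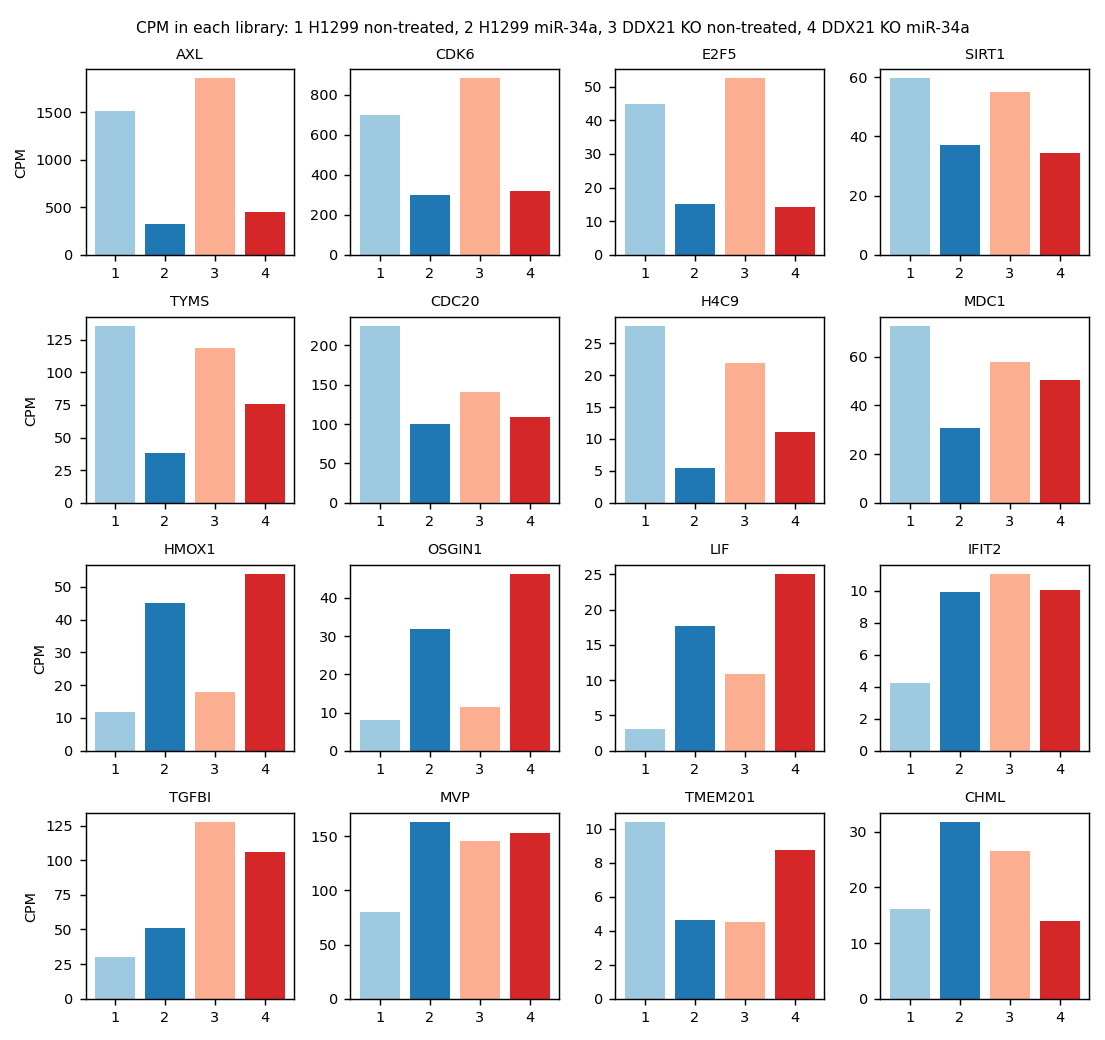
CPM (vertical axes, from 0, scaled per gene) of 16 genes in the 4 libraries, with no error bars because each group has 1 library. AXL, CDK6, E2F5 and SIRT1 are lower with the mimic in both lines, TYMS and H4C9 show a smaller step in DDX21 KO, and IFIT2 has a single low library, non-treated H1299.

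Among single protein-coding genes, leaving out histones and read-through loci, those with the highest difference included MDC1, a scaffold of the response to DNA damage. MDC1 had 2591 counts in non-treated H1299, 1016 with the mimic, 1559 in non-treated DDX21 KO and 1651 with the mimic, and its response was -1.23 in H1299 and -0.20 in DDX21 KO, a difference of 1.03 (0.89 to 1.17). The library of H1299 with the mimic was the low one. NLGN2, a postsynaptic adhesion protein, had 293, 52, 86 and 78 counts and a difference of 1.92 (1.30 to 2.53). CCNA1, the cyclin A of germ cells, had 207, 66, 179 and 209 counts and a difference of 1.44. The histone methyltransferase gene SETD1A had 419, 193, 169 and 241 counts and a difference of 1.22. Both knockout libraries of SETD1A lay near the level of H1299 with the mimic, unlike those of CCNA1.

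Among those with the lowest difference, MVP, the main protein of vault particles, had the most reads. Its levels were 79.9 CPM in non-treated H1299, 163 with the mimic, 146 in non-treated DDX21 KO and 153 with the mimic, so that 3 libraries were close and non-treated H1299 was low. SLC9A3, a sodium-proton exchanger, had 133, 709, 409 and 765 counts and rose by 2.51 in H1299 beside a response of 0.62 in DDX21 KO, but 55.1% of its exonic bases are shared with another gene. BBOF1, a protein of ciliary basal bodies, had 91, 479, 96 and 220 counts, with the non-treated libraries low in both lines, and its responses were 2.49 and 0.90. VEPH1, whose response of 0.16 in H1299 was within 2-fold, fell by 1.60 in DDX21 KO, from 158 to 62 counts.

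The most extreme differences of all lay at loci where genes overlap. The lowest was ZNF117 at -3.29 and the highest ERV3-1-ZNF117 at 2.61, which is the read-through transcript of the same locus. Of 51 read-through genes 14 were past 2-fold in the difference, of 207 partners of read-through genes 4, of 1265 other genes that share at least 20% of their exonic bases 20, and of the remaining 10781 genes 145. In the 2462 genes with the fewest reads, with mean counts from 52 to 287, the numbers past 2-fold were 65 higher and 67 lower. In the 2461 genes with the most reads, 12 were higher and 0 lower, and the SD of the difference was 0.24 beside 0.51 in those with the fewest.

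The authors' deposited table of comparisons holds 908 genes, of which 198 are among the genes used here. It gives an adjusted p under 0.05 to 0 genes for the mimic in H1299 and to 1 for the mimic in DDX21 KO. The raw p in the authors' deposited table is under 0.05 for 331 genes in H1299 and 105 in DDX21 KO. For TYMS the authors' deposited table has signed folds of -3.57 in H1299 and -1.53 in DDX21 KO. How those p-values were computed is not stated in the labels or headers, and with 1 library per group they rest on no replicate.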

How the data were processed

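Each of the 4 libraries, 1 per group, was stranded and made after removal of ribosomal RNA, per the labels' protocols. Bowtie2 2.0.6, TopHat2 2.0.9 and build GRCh38 are named in the submitters' processing notes, with no counting tool given in the sources used here. The authors deposited estimated counts per gene as whole numbers and FPKM per gene, per the file headers, and estimated counts per transcript. Their deposited comparison table holds signed fold values, which are a score with no values between -1 and 1, with raw and adjusted p-values. Library sizes were scaled by TMM in edgeR 4.0.16 (R 4.3.3). Log2 ratios used a prior count of 2 scaled to library size, and 95% intervals used the summed Poisson variances of all 4 libraries. Genes needed 50 reads in every library, and a call needed a 2-fold difference. Expected counts entered as deposited, and intervals are too narrow if read pairs were counted as 2. The functions were tested on simulated counts. Gene lists, 36 in all, and the genes to be described were chosen with earlier results of these data known. Named genes were the 15 highest and 15 lowest by interval bound among protein-coding genes without histones and read-through loci, the 8 highest and 8 lowest by mean response, the 2 highest and 2 lowest of each list, a fixed set of 28 genes, and the 4 clearest genes of each class by call in each line; the text gives a selection of these, plus MCM7, H1-5, IFIT3, CLSPN, CENPA, ESPL1, LDHA and VEGFA, chosen after their values were seen. Alternatives were other scalings (library totals, and DESeq2 1.42.0 size factors), count minimums, prior counts, FPKM with a pseudocount of 0.1, protein-coding genes only, and other call folds, slopes and site groupings. Some items are not reported here. Site searches used the longest 3' UTR per gene in GENCODE 29.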

Additional observations from a re-analysis of the deposited data

Results flagged for a closer look

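Of the 15 protein-coding genes with the highest and the 15 with the lowest interval bound of the difference, 10 had responses of opposite sign in the lines, each beyond counting error. Other genes outside these 30 also had such responses, among them CHAC1, at -0.67 and 0.38. These differences were not tested, because each group has 1 library. TMEM201, an inner nuclear membrane protein, had 371, 153, 122 and 286 counts in non-treated H1299, H1299 with the mimic, non-treated DDX21 KO and DDX21 KO with the mimic, and a difference of 2.08. Its transcript NM_001010866, by the authors' estimates, had 249, 129, 0 and 229 counts, while XM_017000549 had 77, 0, 96 and 0, so reads were also placed on different transcripts in different libraries. CBX7, a Polycomb protein that shares 35.3% of its exonic bases with another gene, had 286, 194, 84 and 266 counts and a difference of 1.80. KLHL25 had 167, 83, 67 and 122 counts and 1.44, BHLHB9 381, 211, 159 and 266 and 1.18, and ATXN2L, an RNA-binding protein of stress granules, 1060, 631, 517 and 856 and 1.07. In these 5 genes the non-treated DDX21 KO library lay below non-treated H1299.

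CHML, a Rab escort protein, had 577, 1042, 712 and 457 counts and a difference of -1.89, with transcript NM_001381853 at 336, 937, 249 and 217 counts and NM_001821 at 209, 60, 438 and 225. APOBEC3F, a cytidine deaminase, had 77, 180, 122 and 93 counts and -1.98. LUZP6 had 873, 1496, 1168 and 800 counts and -1.72, but 100% of its exonic bases are shared with MTPN, whose own difference was 0.15. COL13A1 had 238, 412, 97 and 86 counts and -1.35, and TGFBI 1075, 1681, 3434 and 3462 and -1.03.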

How the results depend on the processing

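No paired analysis was possible because each group has 1 library, and leaving out a library was not run for the same reason. Scaling by library totals or by median-of-ratios size factors, and prior counts of 0.5 or 5, moved no median beyond counting error, no r, slope or ratio beyond 0.05, no count by over 1.5 times and no named gene across 2-fold. Of 274 recomputed differences of the named genes with the highest and lowest bounds, 273 stayed on their side of 2-fold and 1 did not, APOBEC3F at -0.97 with the deposited FPKM. Counts of genes depend on depth. With a minimum of 10, 200 or 1 count, the difference was past 2-fold higher for 364, 26 or 939 genes and lower for 390, 8 or 929, against 539 and 492 with a call at 1.5-fold. Pearson r was then 0.591, 0.809 or 0.419, the least squares slope was 0.533, and the SD ratio was 0.81 at a minimum of 1.

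With a minimum of 1, 514 genes had a mean response of -1 or lower and 71.4% of them were smaller in DDX21 KO, beside 80.2% at 10. For higher genes the numbers were 268 at 10, 70 at 200 and 442 at 1, with 73.3% smaller at 1. The 8-mer shift at a minimum of 200 was -0.21 in H1299 and -0.15 in DDX21 KO. Within the tertiles of 3' UTR length, from short to long, it was -0.27, -0.33 and -0.19 in H1299, -0.22, -0.20 and -0.14 in DDX21 KO, and 0.03, 0.078 and 0.036 in the difference. For 2 or more sites against 0 it was -0.21, -0.15 and 0.063.

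Of 359 recomputed list medians of the difference 31 moved beyond counting error, and 12 had another sign. The median of TGF-beta and YAP targets turned from -0.11 to 0.11 with a minimum of 200; the cause was not tested. Medians of AP-1 factors and ERK output, near 0 at first, also changed sign at a minimum of 1. With FPKM the medians that moved were 0.12 for reported targets, 0.084 for microRNA processing, 0.42 for replication, 0.41 for homologous recombination, -0.18 for interferon-stimulated genes, 0.038 for cholesterol synthesis, 0.023 for glycolysis, 0.11 for ribosome biogenesis, 0.058 for helicases, 0.014 for heat shock proteins, 0.90 for histones, -0.013 for ribosomal proteins and -0.13 for oxidative phosphorylation. With count minimums the moved medians were -0.12 for NRF2 targets (at 10, 200 and 1), -0.32 for interferon-stimulated genes, 0.12 for AP-1 and 0.043 for ERK output (all at 1), -0.25 and -0.29 for epithelial genes (at 10 and 1), 0.22 for the MYC network (at 200), and 0.84, 0.84 and 0.83 for histones (at 10, 200 and 1). In an alternative chosen after seeing the data, without genes that share exons, the medians were 0.40 for replication, 0.034 for deoxynucleotide synthesis, 0.40 for ATF4 genes, -0.002 for TGF-beta and YAP targets and -0.14 for oxidative phosphorylation.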

Other observations

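Genes that missed the limit of 50 reads in some libraries split unevenly between groups. Such genes reached 50 only in both H1299 libraries in 217 cases and only in both DDX21 KO libraries in 162. They reached it only in both libraries with the mimic in 91 cases, beside 46 only in both non-treated libraries. All these are among the 1660 genes that passed in some libraries. The limit applies to unscaled counts, and non-treated DDX21 KO was the smallest library, with 26868358 counts beside 36263145 in non-treated H1299. How far depth made this split was not tested. DNAH7, an axonemal dynein gene, had 57 counts in non-treated H1299, 567 with the mimic, 44 in non-treated DDX21 KO and 295 with the mimic. IFI44, an interferon-stimulated gene, had 15, 120, 59 and 53 counts in the same order.

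By chromosome, the median difference ran from -0.06 on chromosome X (456 genes) to 0.05 on chromosome 19 (864 genes). Transcribed pseudogenes had a median difference of 0.12 over 263 genes and other pseudogenes -0.11 over 236, beside -0.02 for protein-coding genes.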
